A study of Homo sapiens with 15 samples.

Results

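Glycolysis and hypoxia genes were followed across 15 two-color arrays of A549 cells. The set held the 40 genes that code for glycolytic enzymes, glucose and lactate transporters, the hypoxia-inducible factors (HIFs) and well-known HIF targets, found by the gene name that the array design gives each probe. They were 40 of 30484 gene names and 69 of 41000 probes on the array, and 68 of the 69 probes passed the filter on dim signals. All 40 genes were tested through their brightest probe.

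The study asked which transcripts respond to the level of 5 miRNAs studied for their response to X-rays, namely miR-766, miR-629*, miR-574-3p, miR-565 and miR-181d. A549 is an established epithelial line from a human lung carcinoma, and all 15 arrays are of this line. On every array the RNA of A549 cells transfected with a synthetic miRNA ("overexpressing" cells) was labelled with Cy5, and the RNA of A549 cells transfected with the locked nucleic acid antagomir of the same miRNA ("antagomir" cells) was labelled with Cy3. The oligonucleotides were given at 20 nM, the RNA was taken at 24 h, and each miRNA had 3 arrays. Neither mock-transfected cells nor a swap of the dyes was among the arrays. The effect of a miRNA and the effect of the dye therefore cannot be told apart on the arrays of any single miRNA. A dye effect of equal size on every array drops out when miRNAs are set against each other. In bulk RNA such as this, fewer cells with a transcript and less of it per cell cannot be told apart either. The log2 ratio below is overexpressing over antagomir, so that a positive value means more signal from the overexpressing cells.

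Glycolysis splits glucose into pyruvate, and lactate dehydrogenase then turns pyruvate into lactate, or lactate back into pyruvate. Under low oxygen the HIF alpha subunits escape the prolyl hydroxylases that mark them for destruction, pair with ARNT and raise the transcription of glucose transporters, glycolytic enzymes, VEGFA, carbonic anhydrases and mitophagy genes. Lung carcinoma lines such as A549 use glycolysis heavily even in normal oxygen.

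The mature sequences of the transfected miRNAs are shown because the groups of arrays are named for which of them was raised or blocked. RefSeq (GRCh38.p14) held 3 of the 5. They are written 5′ to 3′ with the seed, bases 2 to 8, in capitals, and no seed was shared. miR-574-3p lies at chr4:38868092-38868113 on the plus strand, miR-181d (RefSeq hsa-miR-181d-5p) at chr19:13874910-13874932 on the plus strand, and miR-629* (RefSeq hsa-miR-629-3p) at chr15:70079387-70079408 on the minus strand. The others were miR-565 and miR-766.
miR-574-3p: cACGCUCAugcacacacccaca
miR-181d: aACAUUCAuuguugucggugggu
miR-629*: gUUCUCCCaacguaagcccagc

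The share of probes well above background ran from 68.1% to 75.5% in the Cy5 channel and from 68.8% to 73.0% in the Cy3 channel, and the arrays held 0 saturated spots. The 7 epithelial markers, among them KRT8, KRT18 and CDH1, were well above background on all 15 arrays. Of the 7 markers of blood, endothelium and fibroblasts, PTPRC, PECAM1, CDH5, COL3A1 and DCN were at or near background. CD3E and COL1A1 were above background on all 15 arrays, at low processed signals between 20.4 and 57.4. A single array stood apart, namely miR-565 replicate 1. The standard deviation of its log2 ratios over all probes was 0.867, against 0.391 to 0.556 on the other 14 arrays. Where leaving it out changed the call of a member's value printed below, both values are given.

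**Figure D1:**
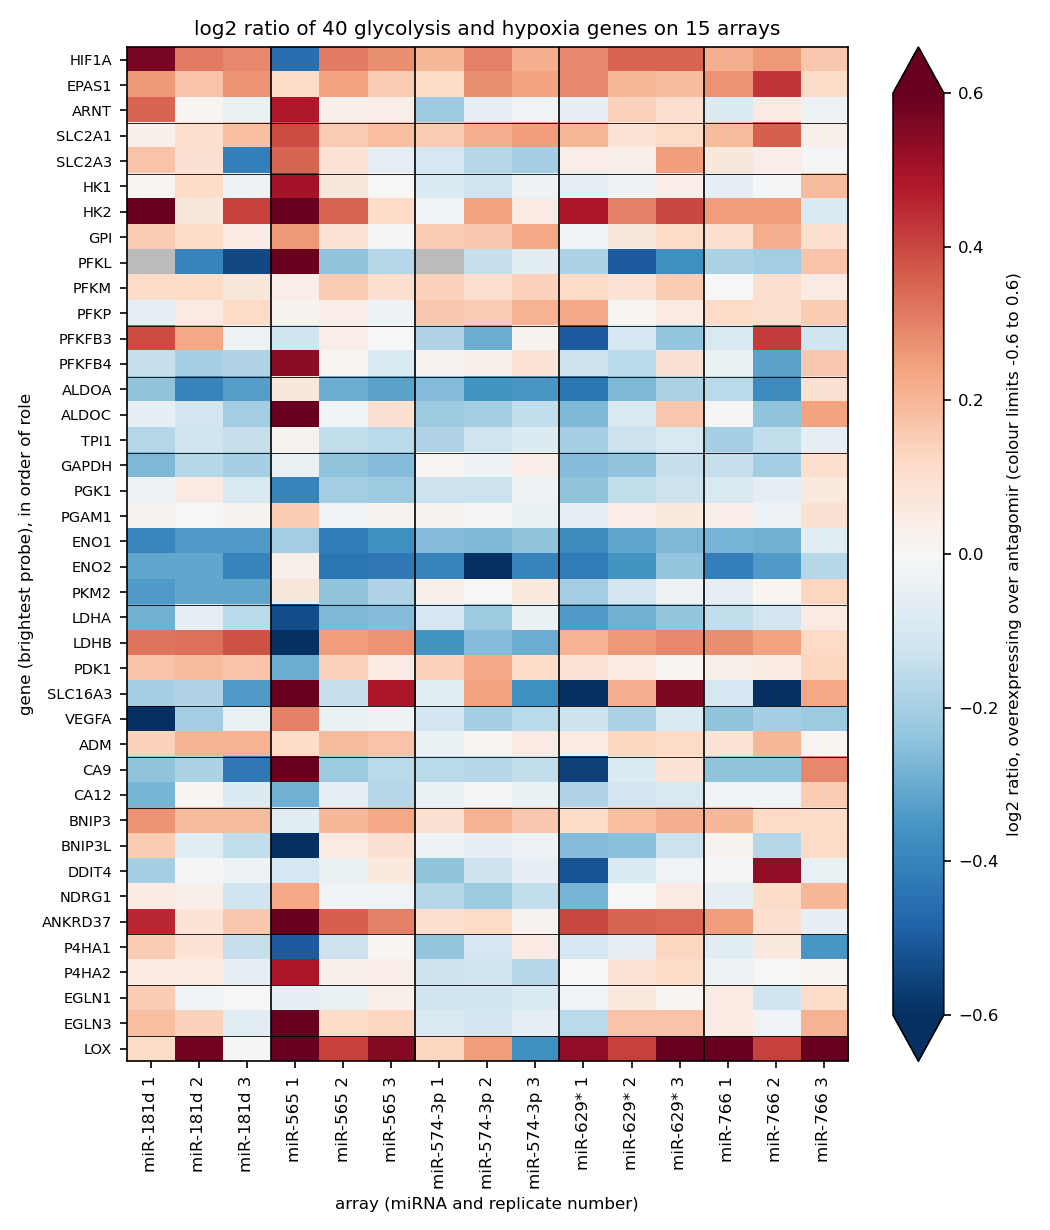
Log2 ratio (overexpressing over antagomir) of the 40 genes, in rows grouped by role, on the 15 arrays, in columns grouped by miRNA; red is higher in overexpressing cells, blue is higher in antagomir cells and grey is a spot flagged as an outlier. ENO1 was blue on all 15 arrays, EPAS1 was red on all 15, and LDHB was blue on the 3 miR-574-3p arrays and on miR-565 replicate 1 only.

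In the mean of the 5 miRNAs the hypoxia and glycolysis genes split into a group with more signal from overexpressing cells and a group with more signal from antagomir cells. The ratio was above 0 for 12 genes and below 0 for 10 genes at an adjusted p under 0.05, and 1 of the 12, LOX, was at background in the antagomir channel. Among all 23005 genes with a mean ratio, 23.1% were called higher and 18.5% lower by the same test, so that calls in the set, at 30.0% and 25.0%, lay near the share of the array as a whole. The median over the 40 genes was -0.0053 on the log2 scale, and that over all genes was 0.014. The counts without miR-565 replicate 1 were 13 higher and 12 lower, against 31.8% and 25.9% of all genes; LDHB was added to the higher genes, at 0.15 ± 0.017 (adjusted p = 1.44e-05), and PFKL and CA9 to the lower ones. With the slide as a random block 0 of the 40 genes passed (0.339% of all genes); the correlation within slides in that fit was 0.73, and it was -0.20 once miR-565 replicate 1 was left out, where 30 of the 40 passed (74.0% of all genes).

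HIF1A, the oxygen-regulated subunit present in most tissues, had a log2 ratio between -0.45 and 0.57, with a median of 0.29. The ratio was above 0 on 14 of 15 arrays, the exception being miR-565 replicate 1. Its mean was 0.24 ± 0.049 (SE, 15 arrays, adjusted p = 0.00196), and 0.29 (adjusted p = 3.86e-07) without that array. EPAS1, which codes for HIF-2 alpha, was steadier. Its ratios were 0.26, 0.17 and 0.27 with miR-181d, 0.12, 0.24 and 0.15 with miR-565, 0.12, 0.28 and 0.24 with miR-574-3p, 0.29, 0.20 and 0.19 with miR-629*, and 0.27, 0.43 and 0.11 with miR-766. Every array thus had more EPAS1 signal from overexpressing cells, and the miRNAs overlapped. The mean was 0.22 ± 0.025 (adjusted p = 2.33e-05), a 1.17-fold difference. The dimmer EPAS1 probe gave 0.11 ± 0.049 and missed the threshold (adjusted p = 0.0884), but passed it at 0.064 (adjusted p = 0.0376) without miR-565 replicate 1. ARNT, the constitutive partner of both alpha subunits, was at 0.046 ± 0.044 (adjusted p = 0.432), with a 95% interval of the mean from -0.050 to 0.14.

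The prolyl hydroxylases EGLN1 and EGLN3, which hydroxylate the alpha subunits and so lead to their removal, had mean ratios of -0.010 ± 0.022 and 0.10 ± 0.055, and neither passed the test. For EGLN1 a dimmer probe did pass, at 0.10 ± 0.026 (adjusted p = 0.00961). Of the glucose transporters, SLC2A1 was called higher and SLC2A3 was not called, and the difference between them was not tested. SLC2A1 (GLUT1), the main glucose importer of many tumor lines, had ratios from 0.03 to 0.39, above 0 on all 15 arrays, with a mean of 0.17 ± 0.027 (adjusted p = 0.000307). SLC2A3 (GLUT3), a high-affinity importer, ranged from -0.41 to 0.35 and its mean was 0.011 ± 0.052 (adjusted p = 0.886). Its dimmer probe, at a mean log2 signal of 4, gave -0.18 ± 0.083 (adjusted p = 0.0939). Without miR-565 replicate 1 that probe was called lower, at -0.23 (adjusted p = 0.0167).

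Among the 9 enzymes from hexokinase to triosephosphate isomerase, 4 were called higher and 2 lower in the mean ratio. Of all genes 23.1% were called higher and 18.5% lower, and a group of this size was not tested against those shares. HK2, the inducible hexokinase that traps glucose in the cell, had the highest mean of the 9, 0.28 ± 0.056 (adjusted p = 0.00169), and ranged from -0.08 to 0.70 over the arrays. GPI, which isomerizes glucose 6-phosphate, was at 0.12 ± 0.023 (adjusted p = 0.00149). The phosphofructokinase isoforms PFKM and PFKP were at 0.097 ± 0.016 and 0.088 ± 0.021, and PFKM was at or above 0 on all 15 arrays. ALDOA, the aldolase that cleaves fructose 1,6-bisphosphate, was lower, at -0.26 ± 0.039 (adjusted p = 0.000275), and so was TPI1, at -0.13 ± 0.020. HK1, PFKL and ALDOC did not pass, but PFKL was lower without miR-565 replicate 1, at -0.24 (adjusted p = 0.000357). The dimmer PFKL probe was lower with all 15 arrays in the fit, at -0.36 ± 0.073 (adjusted p = 0.00198), and below 0 on 14 of them.

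In the mean ratio 5 of the 6 enzymes of the later steps were called lower, where 18.5% of all genes were. PGAM1, which shifts the phosphate of phosphoglycerate, was at 0.020 ± 0.019 (adjusted p = 0.407). ENO1, the enolase that forms phosphoenolpyruvate, had ratios of -0.39, -0.34 and -0.34 with miR-181d, -0.21, -0.42 and -0.37 with miR-565, -0.26, -0.27 and -0.24 with miR-574-3p, -0.38, -0.31 and -0.27 with miR-629*, and -0.28, -0.29 and -0.07 with miR-766. No array was above 0, and miR-181d lay below miR-574-3p and miR-766 without overlap, although the F test over the miRNAs did not pass (adjusted p = 0.689). The mean was -0.30 ± 0.023 (adjusted p = 1.78e-06), or 1.23-fold more signal from antagomir cells. It shrank to -0.14 (adjusted p = 0.000457) with normexp background correction and loess, and its call was lost with the slide as a random block (adjusted p = 0.0703). ENO2, the neuronal enolase, had the lowest mean of the 40 genes, -0.35 ± 0.038 (adjusted p = 2.12e-05), and was above 0 on a single array, miR-565 replicate 1, at 0.03. GAPDH, PGK1 and PKM2, which carry out the dehydrogenase and the ATP-forming steps, had smaller means of -0.135 ± 0.027, -0.12 ± 0.022 and -0.099 ± 0.026. They were above 0 on 3, 2 and 5 of 15 arrays. With miR-574-3p GAPDH was at 0.0084 ± 0.060 and PKM2 at 0.030 ± 0.057, and with miR-766 PKM2 was at 0.029 ± 0.057. Signals of these transcripts were mostly bright, with a mean log2 signal between 14.2 and 16.4 for GAPDH, PGK1, ENO1 and PKM2, and 9.6 for ENO2. Of all 1069 genes with a mean log2 signal of at least 14, 33.8% were called lower and 16.4% higher, against 17.7% and 23.4% of dimmer genes; of the 12 members that bright, 8 were lower and 2 higher. The part of signal brightness in these ratios was not tested.

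**Figure D2:**
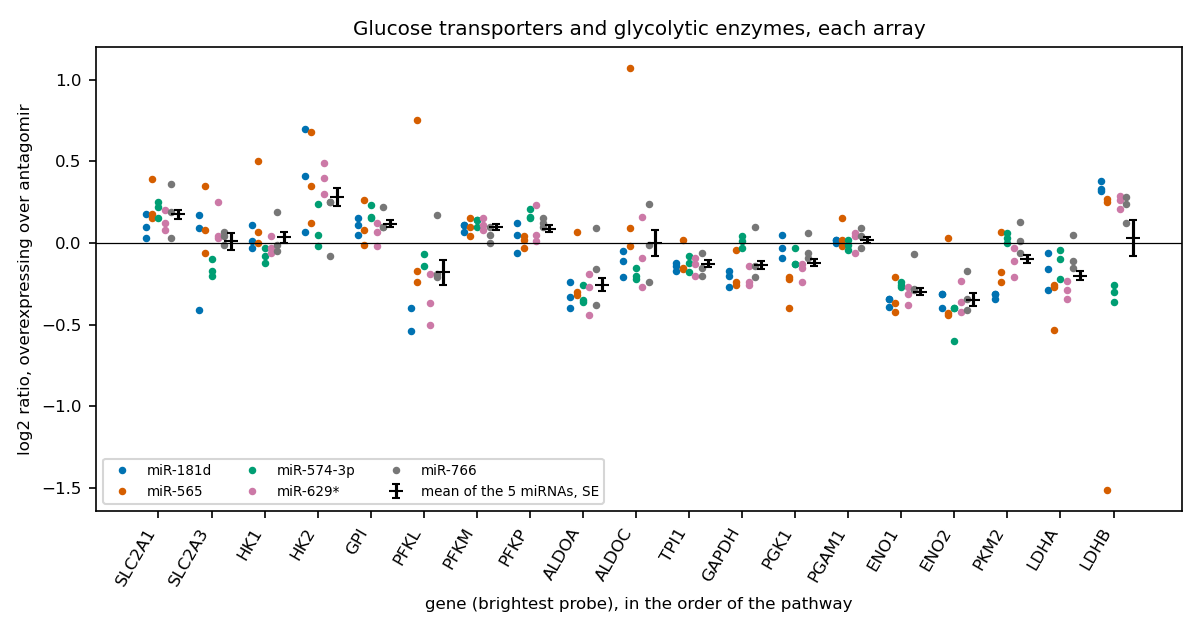
Log2 ratio of the glucose transporters and glycolytic enzymes in the order of the pathway, with a point for each array colored by miRNA and a black bar for the mean of the 5 miRNAs with its SE. The means of SLC2A1, HK2, GPI, PFKM and PFKP lay above 0, and those of ALDOA, TPI1, GAPDH, PGK1, ENO1, ENO2, PKM2 and LDHA lay below 0.

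Probes of ENO1, LDHA and LDHB are shown because these results turn on them. They are printed 5′ to 3′ as the array design gives them, 60 bases each, with NCBI36 positions, and no letters are marked. The ENO1 probes are A_24_P105501 (chr1:8846548-8846607, minus strand) and A_23_P137391 (chr1:8846641-8846700, minus strand). The LDHA probes printed are A_32_P44568 (chr11:18381001-18381060, plus strand) and A_23_P47565 (chr11:18385365-18385424, plus strand), both with a mean ratio below 0. Another LDHA probe, A_32_P231391, is not printed, and its mean ratio was above 0, at 0.31, as described below. The LDHB probe is A_23_P53476 (chr12:21679716-21679775, minus strand). Exon and UTR positions were not assigned, since no annotation of NCBI36 was used.
ENO1 A_24_P105501: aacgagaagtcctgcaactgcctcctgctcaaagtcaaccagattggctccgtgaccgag
ENO1 A_23_P137391: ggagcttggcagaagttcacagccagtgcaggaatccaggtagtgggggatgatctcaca
LDHA A_32_P44568: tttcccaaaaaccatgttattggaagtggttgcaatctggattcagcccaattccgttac
LDHA A_23_P47565: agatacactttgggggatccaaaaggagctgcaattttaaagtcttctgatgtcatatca
LDHB A_23_P53476: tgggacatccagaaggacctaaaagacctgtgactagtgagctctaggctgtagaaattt

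Several probes read the same gene for 19 of the 40 genes, and their ratios did not always point the same way. Of the 18 genes with several tested probes, the mean ratio had the same sign at all probes in 8. In 2 genes, LDHA and VEGFA, probes were called in opposite directions; this happened in 7.26% of the 6184 genes with several tested probes on the array. The ENO1 probes moved together, the dimmer one at -0.42 ± 0.025 (adjusted p = 3.41e-07) and below 0 on all 15 arrays. The PKM2 probes did so too, at -0.099 and -0.14.

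LDHA, the lactate dehydrogenase subunit raised by HIF, was read by 3 bright probes. A_23_P47565 ranged from -0.53 to 0.05 over the arrays, with a mean of -0.20 ± 0.028 (adjusted p = 0.000149). A_32_P44568 ranged from -0.51 to -0.12, all below 0, with a mean of -0.26 ± 0.023 (adjusted p = 4.26e-06). The probe A_32_P231391, the furthest downstream of the 3 (chr11:18385895-18385954, plus strand, 36.7% GC), ranged from -0.05 to 0.45, above 0 on 14 of 15 arrays, with a mean of 0.31 ± 0.029 (adjusted p = 5.65e-06). The ranges of the downstream probe and of A_32_P44568 did not overlap. The mean over the 3 probes was -0.049 and not called (adjusted p = 0.118), so that the direction of LDHA depended on the probe.

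VEGFA, the angiogenic growth factor, was similar at lower signal. Its brightest probe, A_23_P70398, ranged from -0.72 to 0.30, with a mean of -0.15 ± 0.045 (adjusted p = 0.0174). A_24_P179400 was at -0.18 ± 0.046 (adjusted p = 0.00847), A_23_P81805 was at 0.0055 ± 0.034, and A_24_P12401, a probe of 20.0% GC at chr6:43861489-43861548 on the plus strand, was at 0.16 ± 0.028 (adjusted p = 0.000769). The mean over the 4 VEGFA probes was -0.042 and not called (adjusted p = 0.352). For PGK1 the brightest probe and A_24_P604649 were lower, the latter at -0.33 ± 0.028 (adjusted p = 3.75e-06), while the dimmer probes were at 0.015 and -0.045 and not called. The dimmer ALDOA probe was at 0.011 ± 0.046. For PFKFB3, which makes the activator of phosphofructokinase, probe A_24_P111096 ranged from -4.24 to 0.78 with a mean of -0.96 ± 0.29 (adjusted p = 0.0184), whereas the other 3 probes had means from -0.11 to -0.036 and were not called. Without miR-565 replicate 1, 2 of those 3 were called lower, A_23_P95755 at -0.15 (adjusted p = 7.44e-05) and A_24_P206604 at -0.079 (adjusted p = 0.0256). For BNIP3L the brightest probe was at -0.11 ± 0.066 and the other at 0.14 ± 0.042 (adjusted p = 0.0173), and for P4HA2 they were at 0.023 ± 0.032 and -0.14 ± 0.047 (adjusted p = 0.0285).

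**Figure D3:**
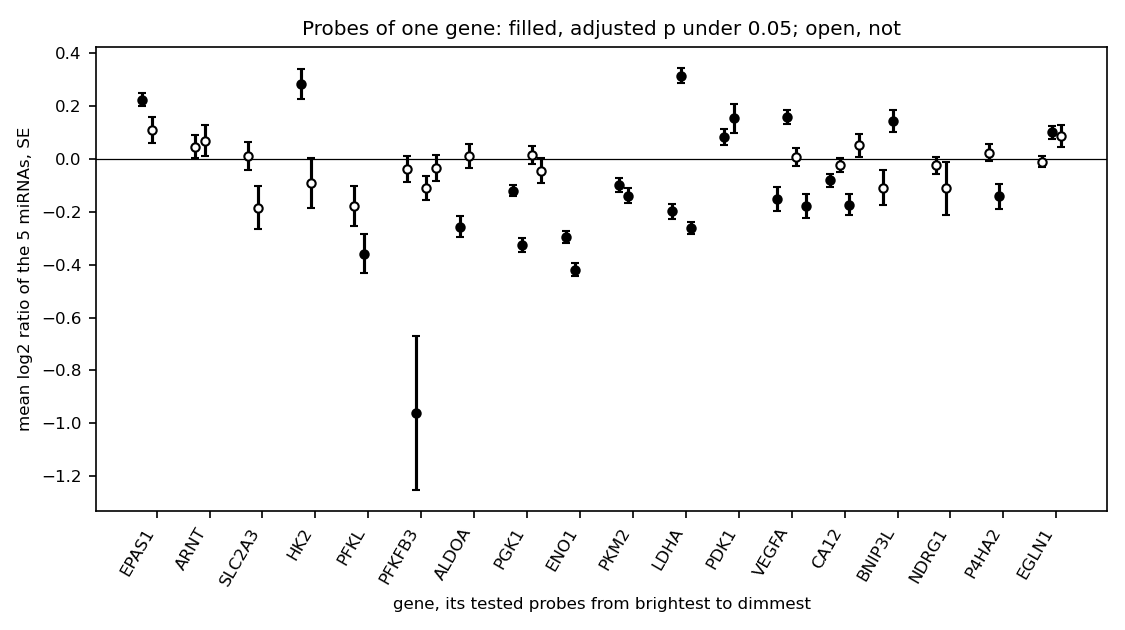
Mean log2 ratio of the 5 miRNAs with its SE for every tested probe of the 18 genes with several, from the brightest probe on the left to the dimmest on the right; filled points had an adjusted p under 0.05. LDHA and VEGFA held filled points on both sides of 0, and the lowest point was PFKFB3 probe A_24_P111096 at -0.96.

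Among the stress and mitophagy genes 2 of 5 were called higher, and among the secreted factors 1 of 2 was higher and 1 lower. Of the carbonic anhydrases 1 of 2 was lower, or 2 of 2 without miR-565 replicate 1. By the mean ratio 23.1% of all genes were called higher and 18.5% lower, or 31.8% and 25.9% without that array. Groups this small were not tested against those shares. BNIP3, a mitophagy receptor, was at 0.16 ± 0.024 (adjusted p = 0.000226) and above 0 on 14 of 15 arrays. ANKRD37, an ankyrin repeat protein with a strong hypoxia response, was at 0.25 ± 0.043 (adjusted p = 0.00063), and ADM, the vasodilator adrenomedullin, at 0.11 ± 0.019 (adjusted p = 0.000641). PDK1, the kinase that blocks pyruvate dehydrogenase, was called at 0.083 ± 0.031 (adjusted p = 0.0456). CA12, a membrane carbonic anhydrase, was lower at -0.082 ± 0.026 (adjusted p = 0.0233), whereas CA9, often used as a hypoxia marker, was at -0.12 ± 0.073 (adjusted p = 0.216) and ranged from -0.56 to 0.71. The highest value was that of miR-565 replicate 1, and without it CA9 was lower, at -0.18 ± 0.053 (adjusted p = 0.0129). DDIT4, NDRG1, P4HA1 and SLC16A3 did not pass, and SLC16A3, the lactate exporter, had a wide spread of -0.74 to 0.90.

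LOX, which cross-links collagen, was too dim for a ratio. It was not well above background in the antagomir channel on any of the 15 arrays, and in the overexpressing channel it was so on 13. The bounds were at least 1.11-fold more signal from overexpressing cells with miR-565, 1.17-fold with miR-629* and 1.29-fold with miR-766, from the lowest signal well above background, while miR-181d and miR-574-3p gave no bound above 1. LOX passed the filter on dim signals through the overexpressing channel alone, so its fitted ratio has a denominator at background and is not given.

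With single miRNAs fewer genes passed, and ENO1 was called lower with all 5. With normexp and loess its calls were lost for miR-565 (-0.17, adjusted p = 0.059), miR-574-3p (-0.087, 0.402) and miR-766 (-0.051, 0.692). With the slide as a random block, 6 genes passed for miR-181d (5.15% of all genes) and 0 for each of the other miRNAs. For those the share of all genes ran from 0% with miR-766 to 0.526% with miR-574-3p. For miR-181d, EPAS1, ADM and BNIP3 were higher and ALDOA, ENO1, ENO2 and PKM2 lower, where 3.76% of all genes were called higher and 2.64% lower. PKM2, the pyruvate kinase of tumor cells, was at -0.34, -0.31 and -0.31 on these arrays, with a fitted ratio of -0.32 ± 0.057 (adjusted p = 0.00846). BNIP3 was at 0.22 ± 0.053 (adjusted p = 0.031). Without miR-181d replicate 1 or replicate 2 a single gene passed, and without replicate 3 there were 2. Without miR-565 replicate 1, which shares the estimate of the spread, 9 genes were higher and 9 lower for miR-181d, against 16.2% and 11.9% of all genes.

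For miR-565, SLC2A1, ADM and ANKRD37 were higher, as was LOX against a denominator at background, and PGK1, ENO1, ENO2 and LDHA were lower, where 9.41% of all genes were called higher and 4.54% lower. ANKRD37 had ratios of 0.77, 0.36 and 0.30 and a fitted ratio of 0.48 ± 0.096 (adjusted p = 0.011), which became 0.33 (adjusted p = 0.0189) without replicate 1. PGK1 had ratios of -0.40, -0.21 and -0.22, with a fitted ratio of -0.28 ± 0.049 (adjusted p = 0.0065). Replicate 1 was the lowest of the 3 arrays for PGK1, and also for LDHA, at -0.53 against -0.27 and -0.26. SLC2A1, at 0.24 ± 0.061 (adjusted p = 0.0274), lost its call without replicate 1, at 0.16 (adjusted p = 0.088). From replicates 2 and 3, 6 genes were higher and 8 lower, against 9.68% and 6.77% of all genes. When the 3 miR-565 arrays were fitted alone, 0 of the 40 were called, and so were 0% of all genes.

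For miR-574-3p, EPAS1 and PFKP were higher and ALDOA, ENO1 and ENO2 lower, where 2.85% of all genes were called higher and 2.67% lower. ENO2 had ratios of -0.40, -0.60 and -0.40, with a fitted ratio of -0.47 ± 0.084 (adjusted p = 0.0069), and PFKP had ratios of 0.16, 0.15 and 0.21, at 0.17 ± 0.046 (adjusted p = 0.0481). Leaving out miR-565 replicate 1 gave 8 higher and 7 lower, against 12.2% and 11.0% of all genes. Without miR-574-3p replicate 2, 0 of the 40 passed, and without replicate 1 or replicate 3 there was 1. Leaving out single arrays of the other miRNAs, miR-565 replicate 1 aside, left 2 to 5.

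For miR-629*, EPAS1 and ANKRD37 were higher and ALDOA, GAPDH, PGK1, ENO1, ENO2 and LDHA lower, where 6.06% of all genes were called higher and 4.38% lower. LDHA (A_23_P47565) had ratios of -0.34, -0.29 and -0.23 and a fitted ratio of -0.29 ± 0.063 (adjusted p = 0.0151), and ANKRD37 was at 0.36 ± 0.096 (adjusted p = 0.0326). Leaving out any single miR-629* array left 1 call, and without miR-565 replicate 1 there were 9 higher and 10 lower, against 20.8% and 14.8% of all genes. For miR-766, EPAS1 alone was higher, at 0.27 ± 0.055 (adjusted p = 0.0235), and ENO1 alone was lower, at -0.22 ± 0.051 (adjusted p = 0.0463), where 1.64% of all genes were called higher and 0.752% lower. Without miR-766 replicate 1 or replicate 2 neither passed, and without miR-565 replicate 1 there were 7 higher and 3 lower, against 11.8% and 7.63% of all genes. All miR-766 arrays lay on a slide of their own, so that slide and miRNA cannot be told apart there.

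Differences between the miRNAs leave out a dye effect of equal size on every array, but the miRNAs lie partly on different slides. On all 15 arrays, with no slide term, the F test of the ratio called 0 of the 40 genes by limma, where 0.552% of all genes were called. At an unadjusted p under 0.05, 3 of the 40 passed, beside 8.03% of all genes. In the overexpressing channel the F test also called 0 of 40, where 0.0696% of all genes were called. At an unadjusted p under 0.05, 0 passed there, beside 4.36% of all genes. In the antagomir channel it called 3, PGK1, PKM2 and EGLN1, where 11.6% of all genes were called, so that the members, at 7.5%, lay under the share of the array. Without miR-565 replicate 1 none of the 3 passed (adjusted p = 0.0606, 0.0724 and 0.0574 in that order), and LDHB alone did (0.00361). The calls depended on the slide term. With the slide as a random block 12, 7 and 28 of the 40 genes passed for the ratio, the overexpressing and the antagomir channel, where 29.5%, 14.3% and 58.3% of all genes did, and as a fixed block over the 4 linked miRNAs 23, 15 and 1 passed, where 51.7%, 39.1% and 2.75% did. The difference of miR-574-3p from the other 4 antagomirs was called for 6 of the 40 genes, where 8.66% of all genes were called. HK1, LDHB, EGLN1 and EGLN3 were higher in miR-574-3p antagomir cells, and GAPDH and PKM2 were lower. Without miR-565 replicate 1 the calls of HK1 (adjusted p = 0.0665), PKM2 (0.0723) and EGLN3 (0.054) were lost. Leaving out other single arrays took the adjusted p of this difference as high as 0.171 for GAPDH and 0.0596 for EGLN1.

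LDHB, the lactate dehydrogenase subunit of oxidative tissues that favors the return of lactate to pyruvate, was singled out after its values were seen. Its ratios were -0.36, -0.26 and -0.30 with miR-574-3p. They were 0.32, 0.33 and 0.38 with miR-181d, 0.21, 0.26 and 0.29 with miR-629*, 0.28, 0.24 and 0.12 with miR-766, and -1.51, 0.25 and 0.27 with miR-565. Every miR-574-3p array thus lay below 0, and every other array above 0 but for miR-565 replicate 1, which was the lowest of all.

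The LDHB difference lay in the antagomir channel. In that channel the log2 signal after quantile normalization was 17.05, 17.05 and 17.08 with miR-574-3p, against 16.46 to 16.79 on the other arrays apart from miR-565 replicate 1, at 17.08. In the overexpressing channel the miR-574-3p arrays were at 16.68, 16.77 and 16.76, at the low end of the other arrays, which ran from 16.76 to 16.94 apart from miR-565 replicate 1 at 15.80. As processed signals, the antagomir channel gave 139000 ± 9070 (SD, n = 3) with miR-574-3p, and 72300 to 115000 on the other arrays without miR-565 replicate 1, which reached 215000. LDHB was thus 0.44 ± 0.097 higher on the log2 scale in miR-574-3p antagomir cells than in the other antagomir cells (adjusted p = 0.0139), and its difference in the overexpressing channel was -0.0083 ± 0.16 (adjusted p = 0.997). These differences without miR-565 replicate 1 were 0.475 ± 0.054 (adjusted p = 0.000277) and -0.092 ± 0.034 (adjusted p = 0.807). The antagomir call was lost without any single miR-574-3p array (adjusted p from 0.0584 to 0.0752) and with each array centred on its 75th percentile (adjusted p = 0.121).

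The call of the LDHB ratio depended on miR-565 replicate 1 and on the slide term. On all 15 arrays, with no slide term, the miR-574-3p ratio minus the mean of the others was -0.43 ± 0.26 (adjusted p = 0.647). With all 15 arrays kept it was -0.975 (adjusted p = 0.0246) with the slide as a random block. The fixed block covered the 4 linked miRNAs only, without miR-766. There miR-574-3p minus the mean of the other linked miRNAs was -1.18 (adjusted p = 3.81e-06), a contrast unlike the others. In both block fits miR-565 replicate 1 is the only array that links slides 1 and 2. Without miR-565 replicate 1, with no slide term and all 5 miRNAs, the difference of miR-574-3p was -0.57 ± 0.042 (adjusted p = 7.88e-06). The F test over the 5 miRNAs gave an adjusted p of 0.000131. In that fit 2 of the 40 genes passed the F test, LDHB and PKM2, where 3.84% of all genes did. The difference of miR-574-3p was called for 3, LDHB, PKM2 and P4HA2, where 5.72% of all genes were. Arrays on the same slide gave the same size: on slide 2 the LDHB ratio of miR-574-3p minus that of miR-565 (2 arrays each) was -0.57, and on slide 3 that of the single miR-574-3p array minus that of the 3 miR-629* arrays was -0.55. In the antagomir channel those differences were 0.50 and 0.52. A single probe read LDHB, so its probes could not be compared.

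PKM2 had ratios of 0.03, 0.00 and 0.06 with miR-574-3p, against -0.34, -0.31 and -0.31 with miR-181d, and these groups did not overlap. The miR-766 ratios, at -0.06, 0.01 and 0.13, overlapped those of miR-574-3p. Without miR-565 replicate 1 the miR-574-3p ratio minus the mean of the others was 0.185 ± 0.044 (adjusted p = 0.028), that of miR-766 was of like size, 0.183 ± 0.044, and not called (adjusted p = 0.179), and that of miR-181d was -0.255 ± 0.044 (adjusted p = 0.0358). In the antagomir channel PKM2 was at 14.19, 14.12 and 14.03 with miR-574-3p and at 14.37, 14.30 and 14.38 with miR-181d, while miR-766, at 14.25, 14.15 and 14.12, again overlapped miR-574-3p. There was a miR-574-3p difference of -0.14 ± 0.040 from the others (adjusted p = 0.0485).

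PGK1 in the antagomir channel stood highest with miR-565, at 16.06, 16.01 and 16.04, against 15.73 to 16.00 on the other arrays, so that miR-565 did not overlap the rest. The difference was 0.19 ± 0.038 (adjusted p = 0.0244), and the F test gave 0.0193, or 0.0606 without miR-565 replicate 1. EGLN1, the main HIF prolyl hydroxylase, was at 11.33, 11.29 and 11.28 in miR-574-3p antagomir cells and at 11.09 to 11.23 in all others. Its difference was small, 0.13 ± 0.027 (adjusted p = 0.00849; F test, 0.0365). When the probes of a gene were averaged, that of EGLN1 shrank to 0.032 and was not called (adjusted p = 0.672).

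**Figure D4:**
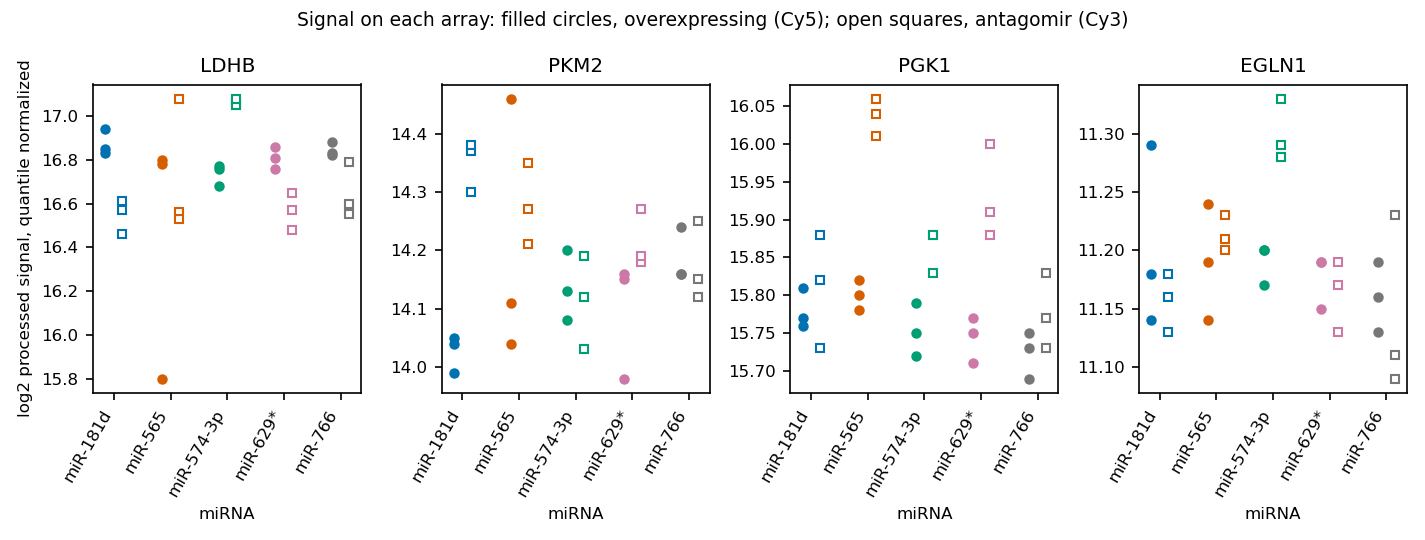
Log2 processed signal, quantile normalized within the dye, of LDHB, PKM2, PGK1 and EGLN1 on each array, by miRNA, with filled circles for overexpressing cells (Cy5) and open squares for antagomir cells (Cy3). The open squares of miR-574-3p stood at 17.05 to 17.08 for LDHB and at 11.28 to 11.33 for EGLN1, and those of miR-565 at 16.01 to 16.06 for PGK1.

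The upstream sequences of ENO1 and LDHA are shown as examples of HIF target genes whose brightest probes had less signal from overexpressing cells. The window ran from 250 bases before to 50 after each gene start in RefSeq (GRCh38.p14), and the core of the hypoxia response element was searched as ACGTG or GCGTG on both strands. It was found in 26 of the 36 windows of the members that RefSeq listed (72.2%), and in 48.4% of all 35116 windows. The stricter ACGTG was found in 15 of the 36 (41.7%), and in 21.4% of all. ENO1, with 2 matches, and LDHA, with 6, both held the core. So did HIF1A and EPAS1, with 1 each, and BNIP3, with 6, whose ratios were positive. Each strand was counted, so that CACGTG, which reads the same on both strands, gave 2 matches. Of the 6 LDHA matches in the window, 5 lie in the bases printed below. The 250 upstream bases are given with matches in capitals, chr1:8878687-8878936 on the minus strand for ENO1 and chr11:18394313-18394562 on the plus strand for LDHA. A match is a description of these letters and not a binding site.
ENO1 upstream: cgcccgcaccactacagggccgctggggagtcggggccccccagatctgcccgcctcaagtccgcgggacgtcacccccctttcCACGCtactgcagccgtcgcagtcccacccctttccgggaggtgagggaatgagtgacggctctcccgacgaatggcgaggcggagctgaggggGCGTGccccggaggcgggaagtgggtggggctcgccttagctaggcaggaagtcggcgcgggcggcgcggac
LDHA upstream: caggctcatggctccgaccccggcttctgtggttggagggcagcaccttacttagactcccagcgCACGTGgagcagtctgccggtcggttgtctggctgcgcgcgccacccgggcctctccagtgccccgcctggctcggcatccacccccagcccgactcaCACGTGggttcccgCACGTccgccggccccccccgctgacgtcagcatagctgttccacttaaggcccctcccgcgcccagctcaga

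Among the HIF regulators and further hypoxia genes, miR-565 had the most calls of any single miRNA. With it 3 of 15 HIF regulators were higher and 1 lower, and 4 of 26 further hypoxia genes were higher and 0 lower. Of all genes 9.41% were called higher and 4.54% lower with miR-565. Of 15 HIF regulators 4 were higher and 3 lower in the mean ratio, with a median of 0.029, where 23.1% of all genes were higher and 18.5% lower. VHL, which marks the hydroxylated alpha subunits for destruction, was at -1.12 ± 0.31 with miR-565 (adjusted p = 0.0368) and at -1.18 ± 0.31 with miR-629* (adjusted p = 0.032). The VHL probe had a mean signal of 92000, the highest of the 15 regulators, and whether it reads VHL alone was not tested. The miR-565 values in these lists include miR-565 replicate 1. CREBBP, a coactivator that HIF recruits, was at 0.435 ± 0.11 with miR-565 (adjusted p = 0.0292). HIF1AN, the asparagine hydroxylase of the alpha subunits, was at -0.54 ± 0.14 with miR-574-3p (adjusted p = 0.0361). ARNTL, a relative of ARNT, was at 0.28 ± 0.054 with miR-181d (adjusted p = 0.0123). It was also called with miR-574-3p, at 0.21 (adjusted p = 0.0437), and with miR-629*, at 0.19 (adjusted p = 0.0431).

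Of 26 further hypoxia genes tested 8 were higher and 4 lower in the mean ratio, against those same shares of 23.1% and 18.5% of all genes. MXI1, a MYC antagonist, was at 0.36 ± 0.069 with miR-565 (adjusted p = 0.00919), 0.26 ± 0.069 with miR-629* (adjusted p = 0.033) and 0.31 ± 0.069 with miR-766 (adjusted p = 0.0357). With miR-574-3p, BHLHB2, a hypoxia-induced repressor, was at -0.28 ± 0.056 (adjusted p = 0.0119) and HIG2, a lipid droplet protein, at -0.28 ± 0.057 (adjusted p = 0.0131). CXCR4, a chemokine receptor, was at 0.515 ± 0.12 with miR-565 (adjusted p = 0.0215). PPP1R3C, a glycogen-targeting subunit, was at 0.24 ± 0.042 with miR-181d (adjusted p = 0.00707). It was also called with miR-565, at 0.19 (adjusted p = 0.0158), and with miR-629*, at 0.167 (adjusted p = 0.0255).

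Of 21 other glycolytic isoforms and branch enzymes tested 4 were higher and 4 lower, again beside 23.1% and 18.5% of all genes. PDHA1, a subunit of the pyruvate dehydrogenase that PDK1 blocks, was higher with 4 of the 5 miRNAs, from 0.26 ± 0.062 with miR-766 (adjusted p = 0.0479) to 0.34 ± 0.062 with miR-181d (adjusted p = 0.00944). HKDC1, a further hexokinase, was lower with miR-565, miR-574-3p and miR-629*, at -0.22 ± 0.040 with miR-565 (adjusted p = 0.00678), and PCK2, of gluconeogenesis, was at -0.20 ± 0.047 with miR-181d (adjusted p = 0.0277). The epithelial marker KRT8 was lower with all 5 miRNAs, with a mean of -0.35 ± 0.031, and 3 of the 7 epithelial markers were higher and 3 lower in the mean ratio. The part of these markers in the results was not tested.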

How the data were processed

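RNA of A549 cells was hybridized to 15 two-color Agilent whole human genome arrays, 3 for each of 5 miRNAs, over 4 slides. The authors deposited one scanner file per array, made with Agilent Feature Extraction 9.5.3 (probe positions of NCBI36), in which the processed signal of each dye is a background-subtracted, dye-normalized intensity; the deposited series table holds the log10 ratio of these signals and differed from the scanner files by at most 0. The deposited error of the log ratio, a score from the software's error model per the file headers, served as a weight in an alternative. Log2 ratios of processed intensities were fitted in limma 3.58.1 (R 4.3.3) with a coefficient per miRNA and an intensity trend over all 15 arrays. Control spots and outlier spots were left out. P-values were adjusted (Benjamini-Hochberg) over 31357 probes, those that passed the software's background test in one of the dyes or both on 3 or more arrays, and a call is an adjusted p under 0.05. A gene was read from its brightest probe. Channels were quantile normalized within the dye and tested by an F test over the miRNAs. Precision is limited by the number of arrays; the sources do not say whether the 3 arrays come from separate transfections, so p-values measure the spread between these arrays, which may be technical.

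Named genes were, for each miRNA and for the mean, up to 6 with the largest ratios among calls of the same sign on every array, up to 6 with the smallest adjusted p in each F test, and HIF1A, EPAS1, ARNT, SLC2A1, SLC2A3, LDHA and VEGFA; all other members, LDHB among them, were named after their values were seen. Genes named from further lists were up to 2 per miRNA among calls. The members, gene lists and tests were chosen with earlier results of these data known. The fit was tested on simulated data. Alternatives covered background correction, centring, the filter, the probe rule, weights, the variance trend, slide and replicate blocks and single arrays left out. PKM2 is now called PKM.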

Additional observations from a re-analysis of the deposited data

Results flagged for a closer look

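Groups differed by a test of the difference itself in the following cases. In the antagomir channel the signal differed over the 5 miRNAs for PGK1 (adjusted p of the F test 0.0193), PKM2 (0.0441) and EGLN1 (0.0365). In the same channel miR-574-3p antagomir cells differed from the other antagomir cells for LDHB (adjusted p = 0.0139), HK1 (0.0495), GAPDH (0.0442) and EGLN3 (0.0326). Of these, HK1, EGLN3 and the F tests of PGK1, PKM2 and EGLN1 were not called without miR-565 replicate 1. Leaving out other single arrays took the adjusted p of the miR-574-3p difference as high as 0.171 for GAPDH and 0.0752 for LDHB. In the fit without that array the log2 ratio differed over the miRNAs for LDHB (adjusted p = 0.000131) and PKM2 (0.00856).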

How the results depend on the processing

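The counts of members called by each miRNA's ratio moved with the processing, and that by the mean ratio moved mainly with the slide. For miR-181d (7), miR-565 (8), miR-574-3p (5), miR-629* (8), miR-766 (2) and the mean (22), leaving out single arrays gave 1 to 18, 6 to 14, 0 to 15, 1 to 19, 0 to 10 and 20 to 25 calls, the highest of each without miR-565 replicate 1. The F tests gave 0 to 2 (ratio), 0 to 0 (overexpressing channel) and 1 to 3 (antagomir channel). Background correction with normexp and loess gave 4 for miR-766 (3.07% of all genes), and median centring 8 for miR-574-3p (8.08%) and 5 for miR-766 (4.05%). Fitting the arrays of 1 miRNA alone gave 13 for miR-181d (9.29% of all genes), 0 for miR-565 (0%), 17 for miR-574-3p (24.8%) and 15 for miR-629* (19.2%). Without the intensity trend there were 2, 5, 2, 5 and 0 for the 5 miRNAs in that order, and 1 by the antagomir F test. Of all genes, 3.34%, 9.54%, 3.45%, 7.5% and 0.956% passed for the miRNAs and 10% by that F test. With the slide as a random block there were 0 for miR-565, miR-574-3p, miR-629*, miR-766 and the mean. Of all genes, 0.148%, 0.526%, 0.0565%, 0% and 0.339% passed there. The F tests of ratio, overexpressing and antagomir channel gave 12, 7 and 28, where 29.5%, 14.3% and 58.3% of all genes passed. As a fixed block over the 4 linked miRNAs the slide gave 23, 15 and 1, where 51.7%, 39.1% and 2.75% of all genes passed. Without a filter there were 12 for miR-181d (17.3% of all genes), 2 for miR-574-3p (3.74%), 5 for miR-629* (6.98%) and 1 for miR-766 (1.92%). Averaging the probes of each gene gave 3 for miR-574-3p (3.9%), 5 for miR-629* (9.46%), 1 for miR-766 (1.44%) and 5 by the antagomir F test (12.5%). At an unadjusted p under 0.05 there were 17, 20, 13, 17 and 11 for the 5 miRNAs, where 22%, 37%, 19.9%, 28.1% and 17.1% of all genes passed. At that threshold there were 3 by the ratio F test (8.03% of all genes) and 17 by the antagomir F test (29.8%). With the slide as a random block and miR-565 replicate 1 left out, chosen after seeing the data, there were 23, 18, 18, 27 and 16. Of all genes, 46.2%, 30.9%, 32%, 57.4% and 39.3% passed there. The ratio F test gave 12, where 25.6% of all genes passed. The cause of this shift was not tested. With the replicate number as a block there were 2 for miR-574-3p (5.41% of all genes), 1 for miR-766 (1.77%) and 22 for the mean (41.7%). For miR-766 ENO1 was lost (adjusted p = 0.0623). The replicate numbers were not taken to pair the arrays. Same-numbered arrays of different miRNAs correlated at over 0.1 in only 13 of 30 pairs (from -0.395 to 0.511). Of the 41 named values, no ratio or channel difference changed direction in the alternatives run; away from single-array omissions 280 values kept their side of the threshold and 105 lost it, and under those omissions 439 kept it and 176 lost it. LOX was limited by its signal over background.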
